A study of Mus musculus with 15 samples.

Results

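Organoids recovered from liver metastases of the third transplant round (Met3, 3 libraries) were compared with organoids recovered from liver metastases of the first round (Met1, 3 libraries), over every gene of the table. These are 6 of the 15 RNA-seq libraries of the series, taken by their sample titles. The comparison itself was chosen with earlier results of these data known. All of them were mouse colon cancer organoids of the genotype the labels call AKP, and all had grown in C57Bl6 recipients. In this series, tumour organoids were grown out of liver metastases, put back into the colon of immunocompetent mice, and recovered again over 3 rounds, with organoids from primary tumours carried through the rounds as controls. Met1 cells had been through 1 such round and Met3 cells through 3. The controls used here as background are organoids of primary tumours from rounds 2 and 3 (Primary2, Primary3). Metastases of round 2 (Met2) are the remaining group, and each of the 5 groups held 3 libraries. The labels do not say whether the 3 libraries of a group are separate mice, separate lines or repeat cultures, so every p-value measures only the spread between these libraries, and the labels give no allele beyond the letters AKP.

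Colon cancer cells that lack Apc run the Wnt pathway without its usual brake, and the cells switch on a set of feedback inhibitors as targets of that pathway. Carcinoma cells keep much of the crypt's program of stem, absorptive and secretory cells, which is held in place by transcription factors such as the GATA and CDX families. Serial transplantation through an organ is a standard way to enrich cells able to colonise it. Each round of growth, recovery and culture is also a passage, and the 2 groups differ in the number of rounds as a whole.

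Total counts ran from 18213726 to 21105296 in Met1 and from 18584990 to 19531701 in Met3. The ribosomal RNA gene CT010467.1 held a share of 2.01% to 3.73% in Met1 libraries against 3.38% to 4.09% in Met3 libraries. The labels name no date or batch for any library. Levels are given as CPM, counts divided by library size after TMM scaling. In bulk RNA, fewer cells with a transcript and less of it per cell cannot be told apart. Summed over 5 epithelial marker genes, the libraries held 10340 to 12890 CPM in Met1 and 11020 to 14610 in Met3, so markers of the labelled cell type were high in all 6. Summed over 5 intestinal markers they held 1204 to 1762 and 1837 to 3160 CPM. Of 10 hepatocyte markers, 3 were at 0 in both groups, and their sum was 1.43 to 6.21 CPM in Met1 and 0.289 to 0.577 in Met3. Of 8 endothelial markers, 2 were at 0 in both groups. Their sum was 2.70 to 46.9 CPM in Met1 and 0.734 to 1.02 in Met3, most of the Met1 value from Vwf (16.1, 46.1 and 2.10 CPM), while Cdh5 held at most 0.0501 CPM in any of the 6 libraries and Emcn was at 0 in all. Leukocyte markers summed to 20.03 to 29.4 and 16.4 to 24.3 CPM, and fibroblast markers to at most 1.35 CPM in both. The part of these other cell types in the results below was not tested. Met2 replicate 1 stood apart from its group so counts are also given without it.

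Of 14925 genes tested, 3499 differed between Met3 and Met1, which is 23.4% (edgeR's quasi-likelihood F test with Benjamini-Hochberg adjustment over all tested genes, called at an adjusted p under 0.05). They divided almost evenly, with 1734 higher in Met3 (11.6% of genes tested) and 1765 lower (11.8%), and the median log2 difference (Met3 minus Met1) over all genes was 0.01. Changes were large: 933 genes were at least 2-fold higher and 965 at least 2-fold lower, and at least 8-fold changes were called for 480 and 403. The 3 Met3 libraries lay wholly outside the range of the 3 Met1 libraries in 3413 of the 3499 called genes. Calling itself selects such genes, and over all genes tested the share was 44.5%. Principal component 1 of the 500 genes most variable in these 6 libraries held 80.4% of their variance, a description of genes picked from the same libraries. It placed Met1 between -66.0 and -42.4 and Met3 between 45.3 and 64.9. The counts fell by over 1.5 times when Met1 replicate 2 was left out (937 higher, 1051 lower) or Met3 replicate 1 (1144 and 1017), and were 2184 and 2265 without Met2 replicate 1. Under all 15 alternative settings together, 1399 genes stayed called.

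**Figure D1:**
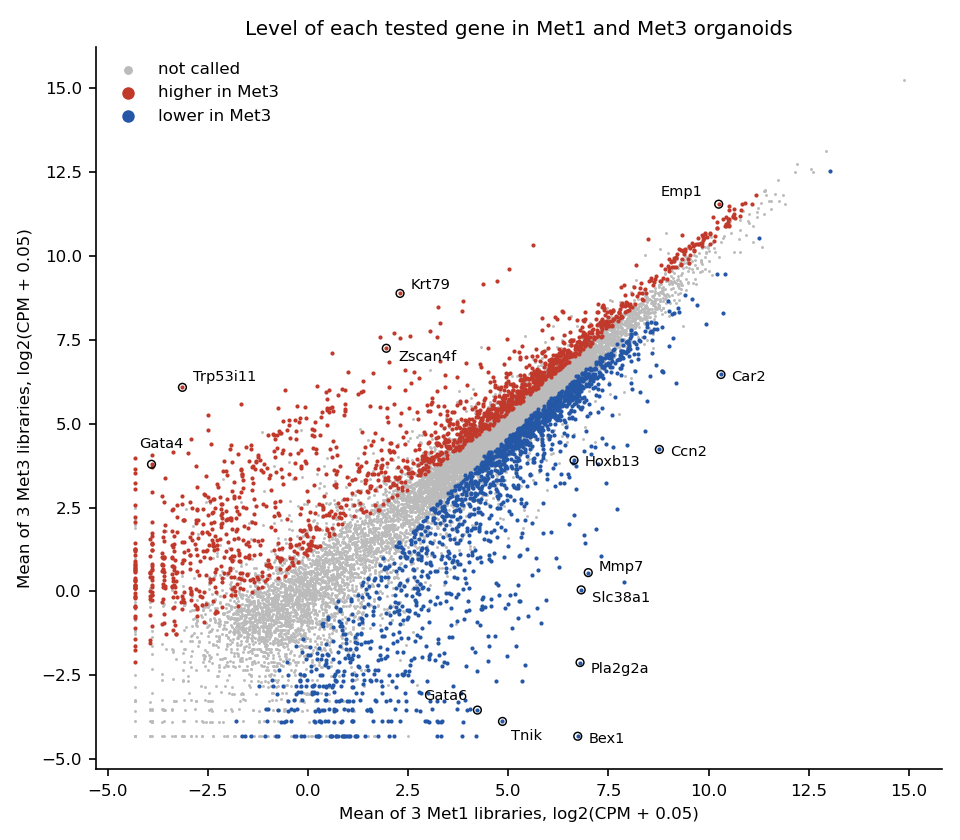
Mean level of each of the 14925 tested genes in the 3 Met1 libraries (x axis) and the 3 Met3 libraries (y axis), both as log2(CPM + 0.05). Red points are the 1734 genes called higher in Met3 and blue points the 1765 called lower; the circled genes are described in the text, with columns of points at the edges where a group held few or no counts.

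Met1 and Met3 expressed different GATA factors, zinc-finger transcription factors of the gut endoderm. Gata6, the gene of the series title, stood at 5.96, 28.5 and 21.6 CPM in the Met1 libraries and at 0.108, 0 and 0 CPM in the Met3 libraries. Its close relative Gata4, in the adult gut a factor of the small intestine, went the other way, from 0.0501, 0 and 0 CPM in Met1 to 22.2, 10.3 and 8.86 CPM in Met3. No Met3 library overlapped a Met1 library for either gene. The Met1 to Met3 ratio of Gata6 was 512 (counting interval 141 to 4230, adjusted p = 0.00205), and the Met3 to Met1 ratio of Gata4 was 838 (150 to 33140, adjusted p = 0.00497). Both calls held under all 15 alternatives. Gata4 was near 0 in the primary-derived organoids too, where it reached at most 0.161 CPM, while Gata6 was kept there at 3.12 to 9.72 CPM.

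Apc, the tumour suppressor that restrains Wnt signalling, was lower in Met3. Its transcript was at 70.1, 84.9 and 75.0 CPM in Met1 and 48.0, 48.1 and 46.0 CPM in Met3, with no overlap (log2 difference -0.70, SE 0.13, adjusted p = 0.00417). Trp53 stood at 3.52 to 4.96 CPM in Met1 and 5.6 to 7.44 CPM in Met3 and did not pass the test (0.65, SE 0.23, adjusted p = 0.0582). A transcript level says nothing of which allele it came from, and the read counts do not show the engineered changes.

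The deepest falls emptied genes that were clearly present in Met1. Bex1, a small adaptor protein best known from neurons, stood at 83.0, 37.4 and 199 CPM in Met1 and had no count in any Met3 library, at least 2025-fold lower against a floor of 3 counts over the group (adjusted p = 0.000211). It was also at 0.134, 0 and 0 CPM in Met2, whereas the 6 primary-derived libraries held 285 to 518 CPM. Also without a count in Met3 were Pctp, a phosphatidylcholine transfer protein (7.95 to 11.02 CPM in Met1, at least 182-fold lower), and Igfbp7, a secreted IGF-binding protein (1.38 to 24.6 CPM, at least 182-fold lower). The Wnt antagonist Dkk3 was at 1.42 to 7.37 CPM in Met1 and likewise at 0 in all 3 Met3 libraries, at least 71.6-fold lower (adjusted p = 0.017). Tnik, a kinase that binds the Wnt effector TCF4, fell from 19.4, 42.5 and 24.8 CPM to 0.0539, 0 and 0 CPM (ratio 1568, counting interval 281 to 61960, adjusted p = 0.00316). Pla2g2a, a secreted phospholipase of Paneth cells, fell from 106, 194 and 33.1 CPM to 0.539, 0 and 0 CPM (adjusted p = 0.00323). Ggta1, which makes the alpha-gal sugar epitope that human cells lack, fell from 6.56, 25.0 and 18.2 CPM to 0, 0.115 and 0 CPM (ratio 453, counting interval 125 to 3748, adjusted p = 0.000208). Rbms3, an RNA-binding protein, fell from between 7.36 and 12.1 CPM to at most 0.0539 CPM (ratio 556, interval 99.4 to 22000, adjusted p = 0.0115). These 8 calls held under every alternative. Irx4, a homeobox factor, and Wif1, a secreted Wnt inhibitor, were also at 0 in Met3 and at 3.92 to 45.0 and 2.28 to 24.04 CPM in Met1. The protease inhibitor Serpinb9b went from 1.5, 4.56 and 23.6 to 0, 0 and 0.0524 CPM (ratio 572, interval 102 to 22640). These 3 calls were lost under limma-voom, with an adjusted p of 0.0588 for Irx4, 0.0673 for Wif1 and 0.07 for Serpinb9b, which has near-identical neighbours among which reads may have been split. In the primary-derived libraries Pla2g2a, Irx4, Wif1 and Igfbp7 held at most 0.232, 0.417, 0.521 and 0.537 CPM, below every Met1 library. Tnik and Rbms3 held at most 5.53 and 3.61 CPM there, also below Met1. Ggta1 (18.8 to 41.65 CPM), Dkk3 (2.04 to 9.896), Pctp (2.38 to 5.975) and Serpinb9b (1.67 to 18.1) were present there.

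The largest rises started from almost nothing in Met1. Ryr3, a calcium release channel of the endoplasmic reticulum, went from 0.0501, 0 and 0 CPM to 19.9, 27.9 and 2.41 CPM (ratio 993, counting interval 178 to 39250, adjusted p = 0.00268), and had no count in any primary-derived library. Nat8l, which makes N-acetylaspartate, went from at most 0.0915 CPM to 25.5, 11.8 and 15.8 CPM (ratio 361, interval 123 to 1754, adjusted p = 0.00179). Lce3b, a protein of the cornified envelope of skin, went from at most 0.0530 CPM to 16.5, 19.3 and 3.2 CPM (adjusted p = 0.00126). Teddm3 rose from at most 0.0530 CPM to 5.02 to 14.4 CPM (adjusted p = 0.0076). The calls for these genes and for Gata4 held under all 15 alternatives. Trp53i11, a p53-inducible gene, had the largest fitted rise among the named genes, from 0.100, 0 and 0.0915 CPM to 50.3, 66.6 and 86.5 CPM (adjusted p = 0.00396), with the call lost under limma-voom (0.153). Slitrk6, a neuronal transmembrane protein, and the goblet cell gene Clca1 also rose, with the call lost only under limma-voom (0.0876 and 0.0793). Calls that 1 library could end were those of the gastric mucin Muc5ac (34.0, 33.6 and 46.4 CPM in Met3, at most 0.200 in Met1, lost without any 1 Met1 library or under limma-voom, adjusted p up to 0.156) and of Dmbt1 (47.3, 3.69 and 1.10 CPM in Met3, lost without any 1 Met1 library or Met3 replicate 1 or under limma-voom, up to 0.150). The same was true of the placental prolactin genes Prl2c2 (0 against 2.36 to 9.81 CPM, lost without Met1 replicate 2 or under limma-voom, up to 0.0635) and Prl2c3 (lost without any 1 Met1 library, without Met3 replicates 1 or 2 or under limma-voom, up to 0.0998), which are near-identical copies.

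**Figure D2:**
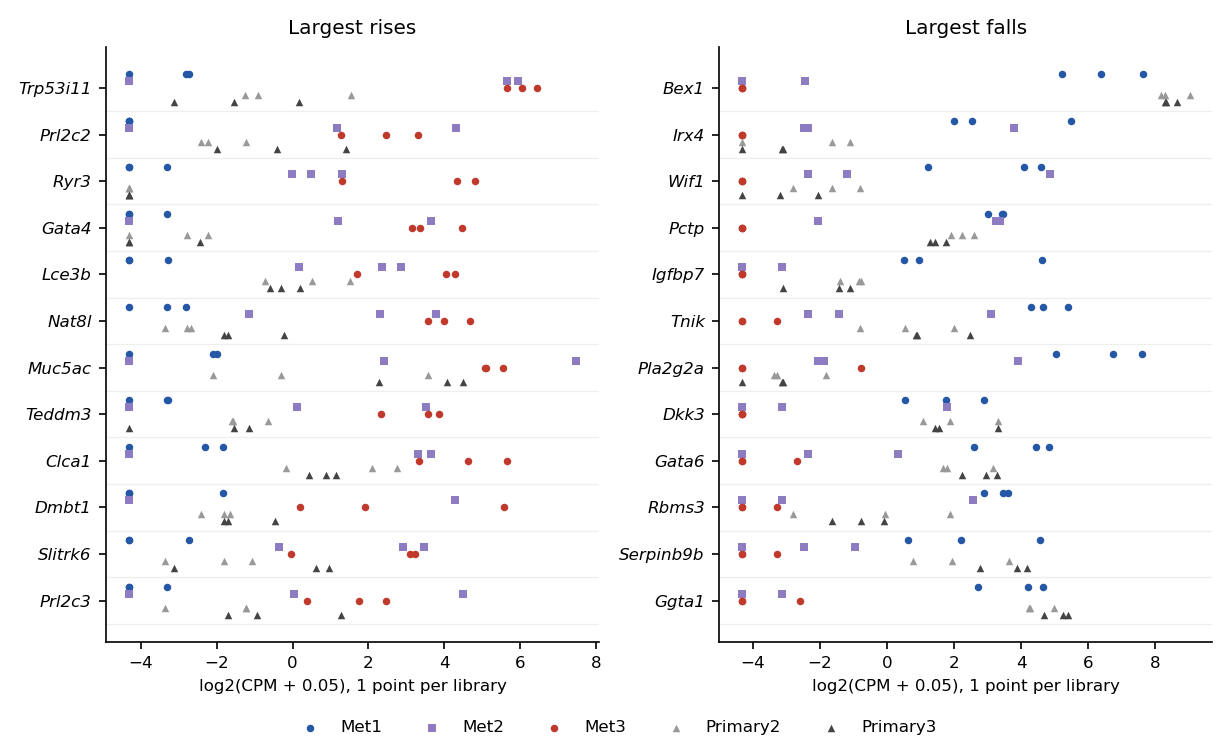
Level of the 12 named genes with the largest fitted rises (left) and the 12 with the largest falls (right), unnamed and predicted genes passed over, in each of the 15 libraries, as log2(CPM + 0.05); 1 point per library, coloured by group, with points at the left edge at 0 counts. Met2 libraries (purple squares) fall on both sides for several genes, and the primary-derived libraries (triangles) hold Bex1 above all 3 Met1 libraries.

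The promoters of the genes at both ends of this scale differ widely in CpG content, the dinucleotide that DNA methylation modifies, and 4 of them are printed for that reason. They are the first 2 entries of the RefSeq promoter table (GRCm38.p6) in each direction; Prl2c2, Gata4, Ryr3, Nat8l, Tnik and Dkk3 have none there. Each run is the 250 bases upstream of the start site, 5′ to 3′ on the gene's strand, with every CpG in capitals. The window of Trp53i11 (chr2:93187298-93187547, plus strand) holds 22 CpG and that of Lce3b (chr3:92932729-92932978, plus strand) holds 0. The window of Bex1 (chrX:136215514-136215763, minus strand) holds 4 and that of Irx4 (chr13:73260247-73260496, plus strand) holds 22.
Trp53i11: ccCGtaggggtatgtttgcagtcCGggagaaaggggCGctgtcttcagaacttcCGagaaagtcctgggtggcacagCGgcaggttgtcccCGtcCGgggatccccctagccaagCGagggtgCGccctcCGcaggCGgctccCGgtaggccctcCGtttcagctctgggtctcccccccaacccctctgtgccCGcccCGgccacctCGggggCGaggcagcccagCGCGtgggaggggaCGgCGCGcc
Lce3b: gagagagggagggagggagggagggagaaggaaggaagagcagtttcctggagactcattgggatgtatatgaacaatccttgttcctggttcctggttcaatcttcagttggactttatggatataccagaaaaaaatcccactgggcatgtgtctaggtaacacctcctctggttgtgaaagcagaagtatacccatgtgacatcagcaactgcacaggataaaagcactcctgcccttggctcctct
Bex1: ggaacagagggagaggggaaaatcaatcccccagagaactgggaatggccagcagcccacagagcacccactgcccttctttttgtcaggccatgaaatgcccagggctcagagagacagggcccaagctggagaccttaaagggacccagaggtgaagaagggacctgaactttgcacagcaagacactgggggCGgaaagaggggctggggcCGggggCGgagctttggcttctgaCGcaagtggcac
Irx4: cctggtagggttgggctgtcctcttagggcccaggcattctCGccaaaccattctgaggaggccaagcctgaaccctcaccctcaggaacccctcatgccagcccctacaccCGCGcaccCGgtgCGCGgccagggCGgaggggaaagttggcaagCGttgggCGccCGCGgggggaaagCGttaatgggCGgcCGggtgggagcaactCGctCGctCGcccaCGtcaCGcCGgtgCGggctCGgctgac

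Among genes with a promoter entry, those that rose strongly mostly had CpG-poor promoters. Over the 10478 tested genes with an entry, the median window held 16 CpG, and 71.8% of windows held at least 10. Of the 480 genes called at least 8-fold higher in Met3, only 204 had an entry. Of these 204, 21.1% had a window with at least 10 CpG, with a median of 3. Of the 403 called at least 8-fold lower, 279 had an entry, and 46.95% of these did, with a median of 9. Promoters of genes without an entry were not examined. Genes of low average level that were not called, 1288 in all, stood at 46.5%, close to the strong falls. That set was cut at the median average level of the strong falls. No set cut at the level of the strong rises was drawn, so the part of low level in their share was not tested. The median G+C content was 48.8% for the strong rises, 57.6% for the strong falls and 59.6% for all tested genes. The letters TATAAA, on either strand, were found in 18.6% of the strong rises, 9.68% of the strong falls and 6.85% of all tested genes. The letters AGATAA, which hold the core bound by factors of the Gata4 and Gata6 family, were found on either strand in 14.7%, 8.96% and 6.02%. Over all 27025 promoters of the table the shares were 12.97% for TATAAA and 10.25% for AGATAA. Base composition moved with both, and its part in these shares was not tested. A match describes the letters of the window only.

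The other 9 libraries differed in how near they lay to Met3. For each gene at least 2-fold changed, every other library was placed on a scale that runs from the Met1 mean to the Met3 mean. Met2 replicates 2 and 3 lay nearer Met3 for 82.3% and 83.6% of the 933 genes that rose, and Met2 replicate 1 for 41.5%. For the 965 genes that fell, the shares were 83.3%, 79.6% and 45.4%. Primary-derived libraries lay nearer Met3 for 25.1% to 67.5% of the genes that rose and for 33.8% to 49.1% of those that fell.

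A group of genes known from the 2-cell mouse embryo rose together. These genes, among them Zscan4, Usp17l, Tcstv, Tdpoz and Zfp352, are switched on at zygotic genome activation by the homeobox factor Dux, and in culture they mark a rare 2-cell-like state of embryonic stem cells. They were grouped here after their values had been seen. Summed over the 9 Zscan4 copies, pseudogenes included, the Met1 libraries held 15.8, 2.49 and 19.7 CPM and the Met3 libraries 821, 234 and 303 CPM. The groups did not overlap for any of the 9 copies, all of which were called higher under all 15 alternatives. Over all genes 22.4% lay wholly above Met1 and 11.6% were called higher. Copies of similar sequence can share reads and the families were picked by their values, so counts of copies are not independent support. Usp17l, a family of deubiquitinases, rose from 4.46, 1.43 and 4.85 to 124, 39.6 and 42.4 CPM (5 of 5 copies called). Tcstv rose from 1.45, 0.424 and 1.42 to 68.2, 29.6 and 24.2 CPM (2 of 2 copies), and Tdpoz from at most 0.412 to between 4.51 and 18.97 CPM. Only 3 of the 5 Tdpoz copies were tested, all called, and they passed the count filter through groups other than Met1. Zfp352 rose from 0.451, 0.159 and 0.503 CPM to 31.5, 10.3 and 8.65 CPM (log2 5.47, SE 0.89, adjusted p = 0.00247). Duxf3, the Dux gene itself, rose from 0.0501, 0 and 0 CPM to 3.02, 0.577 and 0.943 CPM (adjusted p = 0.00812), and was not tested where at least 1 CPM in 3 libraries was asked for. Of the Pramef and Pramel genes, 3 of 5 tested rose. Met3 replicate 1 was the highest of all 15 libraries in each of these family sums. In the other groups Zscan4 stood at 89.8 to 331 CPM in Met2 and at 42.8 to 286 CPM in the primary-derived libraries. The 3 Met1 libraries were the lowest of the 15.

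**Figure D3:**
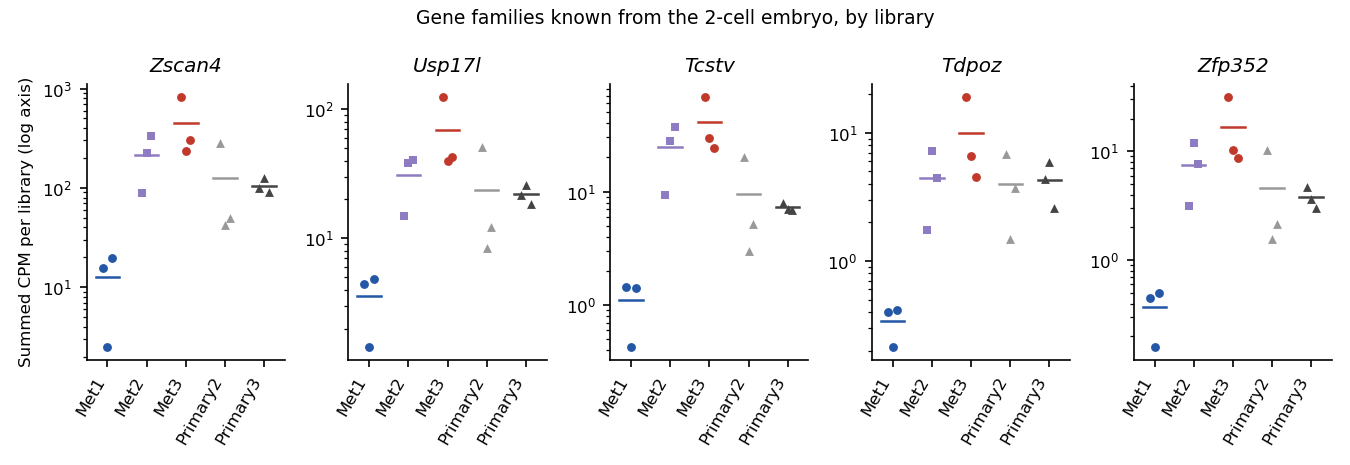
Summed CPM of 5 gene families known from the 2-cell embryo in each of the 15 libraries (log axis), with a line at the mean of each group of 3. The 3 Met1 libraries are lowest in every panel; Zscan4 stands at 2.49 to 19.7 CPM there and at 234 to 821 CPM in the 3 Met3 libraries.

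Copies of Zscan4 share nearly the same upstream sequence. The runs below are the 216 bases that align without gaps in the upstream windows of 3 copies (RefSeq, GRCm38.p6, 5′ to 3′), with bases that differ from Zscan4c in capitals. Zscan4f (chr7:11397699-11397914, plus strand) is 99.5% identical to Zscan4c (chr7:11005506-11005721, plus strand) with 1 difference, and Zscan4d (chr7:11166183-11166398, minus strand) is 97.2% identical with 6. All 3 runs hold TATAAA and 3 CpG.
Zscan4c: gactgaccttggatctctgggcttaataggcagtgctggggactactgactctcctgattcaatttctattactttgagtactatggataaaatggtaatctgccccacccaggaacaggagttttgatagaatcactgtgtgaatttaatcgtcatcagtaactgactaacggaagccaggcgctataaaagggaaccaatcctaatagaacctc
Zscan4d: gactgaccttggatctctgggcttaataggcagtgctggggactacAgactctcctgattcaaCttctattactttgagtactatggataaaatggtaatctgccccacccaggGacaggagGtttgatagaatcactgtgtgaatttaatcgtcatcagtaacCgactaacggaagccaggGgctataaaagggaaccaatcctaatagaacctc
Zscan4f: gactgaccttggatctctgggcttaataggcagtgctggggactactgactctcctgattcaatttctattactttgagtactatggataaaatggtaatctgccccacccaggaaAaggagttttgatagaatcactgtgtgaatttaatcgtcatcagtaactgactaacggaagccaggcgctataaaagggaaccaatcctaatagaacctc
These runs lie upstream of the start site, so they do not show how reads were divided among copies. That division was not tested, so levels of single copies are uncertain and are best read beside the family sum. As counted, Zscan4f was at 4.71, 0.689 and 6.08 CPM in Met1 and 281, 77.4 and 97.4 CPM in Met3, and Zscan4c at 2.15, 0.212 and 1.83 against 116, 34.4 and 42.4 CPM.

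Several feedback inhibitors and antagonists of the Wnt pathway fell. Of 19 tested genes of this list, 9 were lower and 0 higher, against 11.8% and 11.6% of all genes, and the median log2 difference was -1.33 beside 0.01 over all genes. Znrf3, a ligase that removes Wnt receptors, went from 34.8, 36.6 and 39.8 CPM in Met1 to 11.4, 11.1 and 15.2 CPM in Met3 (log2 -1.56, SE 0.26, adjusted p = 0.00251). Rnf43, its close homologue, went from 181, 187 and 208 to 104, 134 and 111 CPM (-0.72, SE 0.15, adjusted p = 0.00511). Tcf7, a target and effector of the pathway, went from 46.9, 63.6 and 64.7 to 15.7, 19.4 and 21.9 CPM (-1.62, SE 0.22, adjusted p = 0.00137). Libraries of the 2 groups did not overlap for all 3 genes, and these calls held under every alternative. Axin2, the standard readout of Wnt activity, stood at 199, 212 and 253 CPM in Met1 and 85.9, 107 and 112 CPM in Met3. Its call (-1.12, SE 0.34, adjusted p = 0.0301) was lost without any 1 of Met1 replicates 2 and 3 or the 3 Met3 libraries (up to 0.107). The antagonist Dkk2 went from 188, 141 and 302 CPM to 1.02, 1.67 and 13.7 CPM (adjusted p = 0.0211, lost without Met3 replicates 1 or 2, up to 0.0728). The other members that fell were Wnt6, Wif1, Dkk3 and Wnt11. Myc, a classic target, stood at 78.8 to 114 and 80.1 to 96.02 CPM with overlapping libraries (-0.10, adjusted p = 0.732), and Ccnd1, Lef1 and Notum did not pass the test. The list's count of falls was 5 without Met3 replicate 1.

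Stem cell genes of the crypt did not move as one. Of 17 tested, 2 were higher and 5 lower, beside 11.6% and 11.8% of all genes. Prom1, also called CD133, went from 122, 193 and 139 CPM to 433, 289 and 238 CPM (log2 1.08, SE 0.22, adjusted p = 0.00493), and the Polycomb gene Bmi1 from 22 to 25.4 CPM up to 39.1 to 46.8 CPM (0.87, SE 0.18, adjusted p = 0.00547). Both calls held under every alternative. Lgr5, the best known marker of crypt stem cells, was at 77.3, 44.8 and 25.5 CPM in Met1 and 30.7, 38.9 and 22.5 CPM in Met3, with overlapping libraries (-0.68, SE 0.44, adjusted p = 0.274). Tnfrsf19, a Wnt-regulated receptor, went from 145 to 155 CPM down to 3.29 to 32.3 CPM, and Ascl2, a transcription factor of these cells, from 23.9 to 33.5 down to 3.29 to 7.60 CPM. Those 2 calls rested on few libraries: that of Tnfrsf19 was lost without Met1 replicate 2 or Met3 replicates 1 or 2 (up to 0.0824), and that of Ascl2 without any 1 of the 6 libraries (up to 0.104). The count of falls was 1 without Met1 replicate 2 or any 1 Met3 library, 2 without Met1 replicate 3 and 3 without Met1 replicate 1.

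**Figure D4:**
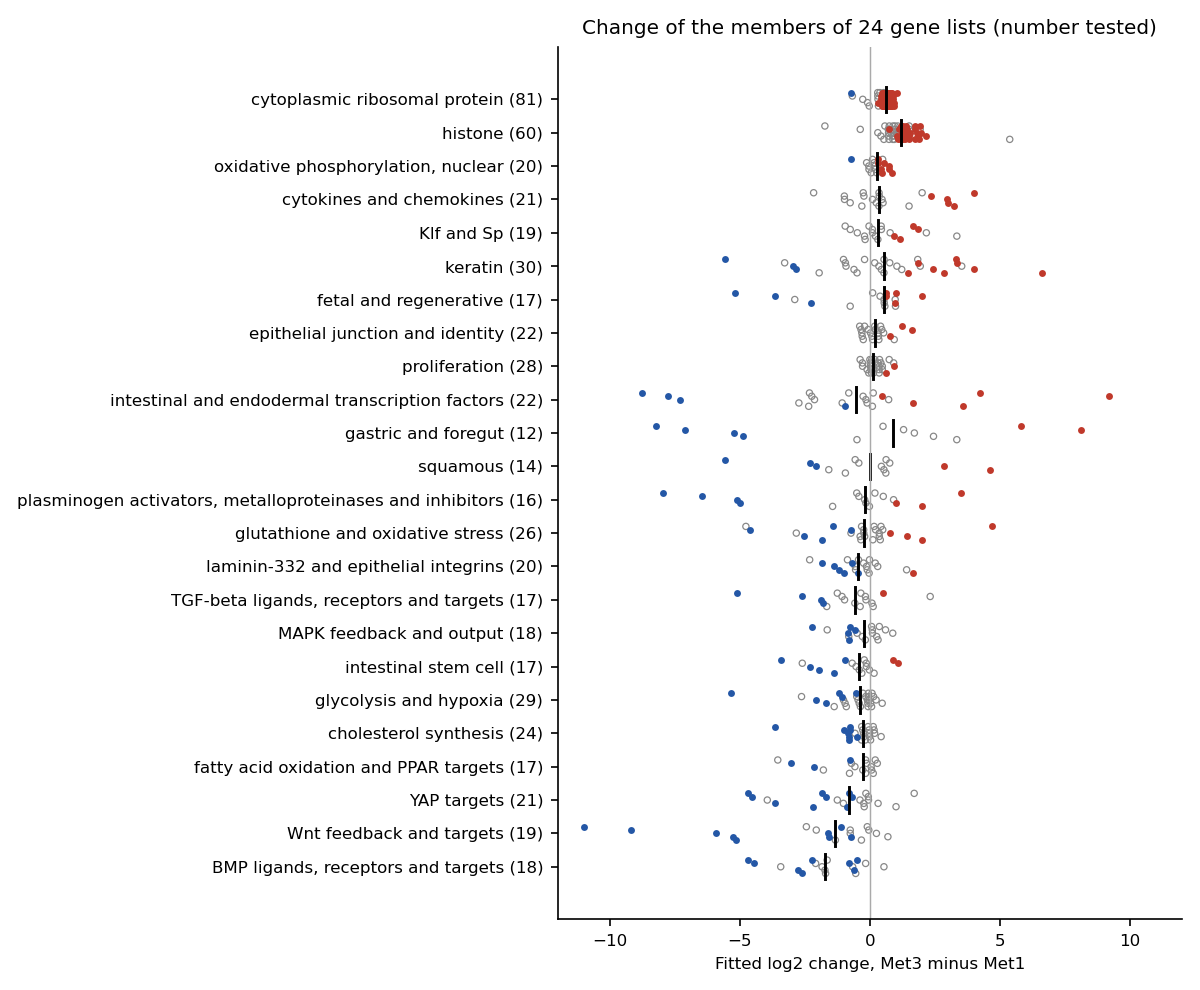
Fitted log2 difference (Met3 minus Met1) of each tested member of 24 gene lists; red and blue points passed the test, open points did not, and the black bar is the list's median, with the number tested in brackets. Most of the 81 ribosomal protein genes lie in a narrow band above 0 (median 0.62), while called members of the Wnt, YAP and BMP lists all lie below 0.

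Targets of YAP, the Hippo pathway's coactivator that drives repair programs, were lower or not called. Of 21 tested, 9 fell and 0 rose, beside 11.8% and 11.6% of all genes, with a median of -0.80. Ccn2 (also known as Ctgf) went from 103, 755 and 453 CPM in Met1 to 18.1, 21.9 and 16.3 CPM in Met3 (log2 -4.54, SE 0.71, adjusted p = 0.00223). Frmd6, an upstream Hippo protein, went from 113, 103 and 104 to 60.6, 70.2 and 65.5 CPM (-0.70, SE 0.13, adjusted p = 0.00404). Only these 2 falls held under all 15 alternatives, and the list's count of falls was 3 without Met3 replicate 1, 4 without Met3 replicate 3, 5 without Met1 replicates 2 or 3, and 5 under limma-voom or with only the 6 libraries in the fit. Among fetal and regenerative markers, 5 rose and 3 fell of 17, beside 11.6% and 11.8% of all genes. There were 3 rises without Met3 replicate 2 and 8 without Met2 replicate 1. Clu, a marker of revival stem cells, fell from 89.5, 521 and 411 CPM to 29.5, 31.2 and 21.1 CPM (-3.64, SE 0.55, adjusted p = 0.00202), and Spp1, which encodes osteopontin, from 403 to 539 down to 84.8 to 108 CPM (-2.26, SE 0.40, adjusted p = 0.00314). Anxa1, a calcium-dependent membrane-binding protein, rose from 1264 to 1575 up to 1977 to 3458 CPM (0.99, SE 0.20, adjusted p = 0.00476). Areg, an EGF receptor ligand, rose from 39.5 to 130 up to 197 to 465 CPM (2.01, SE 0.48, adjusted p = 0.0108), while its relative Ereg fell from 0.651 to 9.06 down to at most 0.162 CPM. Emp1, a membrane protein that marks relapse-forming colon cancer cells, stood at 1084, 1285 and 1291 CPM in Met1 and 2168, 4575 and 2230 CPM in Met3. Its call (1.29, SE 0.41, adjusted p = 0.0396) was lost without any 1 Met1 library or Met3 replicate 2 (up to 0.162), under limma-voom (0.0505) and with ribosomal RNA share as covariate (0.0648).

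The BMP pathway, which opposes stemness and promotes differentiation in the gut, had 8 of 18 tested genes lower and 0 higher. Over all genes the shares were 11.8% and 11.6%, and the list's median was -1.715. The receptor Bmpr1a went from 89.2, 98.8 and 86.6 CPM to 57.2, 55.3 and 65.2 CPM (log2 -0.63, SE 0.11, adjusted p = 0.00286), and the target Atoh8 from 13.9, 7.69 and 26.8 to 0.431, 1.21 and 0.262 CPM (-4.67, SE 1.05, adjusted p = 0.0087). Id2, an inhibitor of basic helix-loop-helix factors, was at 199 to 524 and 37.2 to 76.5 CPM (-2.77, adjusted p = 0.0187), a call lost without Met1 replicate 3 or Met3 replicates 1 or 2 (up to 0.0715). The list's count was 3 without Met3 replicate 1 and 4 without Met3 replicate 2 or Met1 replicates 2 or 3. In the TGF-beta list, 4 of 17 were lower and 1 higher, beside the same 11.8% and 11.6% of all genes. The receptor gene Tgfbr2, a tumour suppressor in the colon, went from 134, 178 and 177 CPM to 53.6, 37.2 and 42.1 CPM (-1.88, SE 0.27, adjusted p = 0.00166). Its transducer Smad2 rose from 56.2 to 62.5 up to 79.6 to 86.6 CPM (0.49, SE 0.11, adjusted p = 0.00671). The count of falls was 2 without Met1 replicates 2 or 3 or Met3 replicate 1. Of 18 feedback and output genes of the MAPK pathway, 5 were lower and 0 higher, beside 11.8% and 11.6% of all genes. The phosphatase Dusp6 went from 115 to 167 down to 72.3 to 93.0 CPM (-0.77, SE 0.17, adjusted p = 0.0083) and Spred2 from 46.7 to 58.6 down to 29.6 to 33.2 CPM (-0.80, SE 0.17, adjusted p = 0.0077), while Dusp4, Dusp5, Spry2 and Etv4 did not pass. That count was 2 without Met1 replicate 2 and 3 without Met3 replicate 2.

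Some markers of Paneth and absorptive cells fell, and gastric genes split. Paneth and deep crypt secretory genes had 3 of 6 lower and 0 higher, beside 11.8% and 11.6% of all genes. The 3 were Pla2g2a, Mmp7 and Reg4. The matrix protease Mmp7 went from 62.4, 192 and 128 CPM to 1.4, 0.404 and 2.46 CPM (log2 -6.47, SE 1.23, adjusted p = 0.00399), and the lectin Reg4 from 5.06, 5.57 and 1.19 to 0.0539, 0 and 0 CPM (ratio 210, interval 37.3 to 8334). Of absorptive genes, 3 of 11 fell and 0 rose, beside 11.8% and 11.6% of all genes, and the list's median was -0.03. The count of rises was 1 without any 1 Met1 library and 2 without Met3 replicate 3 or Met2 replicate 1 or under DESeq2. The carbonic anhydrase Car2, among the most abundant transcripts of Met1 at 1151, 1129 and 1528 CPM, was at 182, 38.6 and 44.9 CPM in Met3 (-3.84, SE 0.76, adjusted p = 0.00459). Slc9a3, the sodium-proton exchanger of the brush border, went from 8.16, 20.3 and 27.4 to 0.108, 0.115 and 0.210 CPM (adjusted p = 0.00636). Gastric and foregut genes split: the stomach genes Gkn3 and Cldn18 fell (1.10 to 17.7 down to at most 0.0577 CPM, and 1.5 to 8.80 down to at most 0.288 CPM), as did Ctse and Gkn1, whereas Muc5ac and the trefoil peptide Tff1 rose. Tff1 went from 1.80, 3.66 and 4.89 to 22.9, 130 and 425 CPM (5.80, SE 1.21, adjusted p = 0.00604), a call lost under limma-voom (0.0551). The gastric and foregut list had 2 higher and 4 lower of 12, beside 11.6% and 11.8% of all genes. It had 1 higher without Met1 replicates 1 or 3, and 0 higher and 2 lower under limma-voom. Goblet genes had 2 of 9 higher, Clca1 and Fcgbp, beside 11.6% of all genes, and 1 without any 1 of the 6 libraries.

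Transcription factors that give position and identity changed in both directions. Of 22 intestinal and endodermal factors, 5 rose and 4 fell, beside 11.6% and 11.8% of all genes. Besides the GATA pair, Klf4, a factor of mature epithelium, rose from 104, 68.7 and 99.5 to 263, 394 and 192 CPM (log2 1.64, SE 0.32, adjusted p = 0.00428). Sox17 fell from 2.25 to 33.7 down to at most 0.157 CPM (lost under limma-voom, 0.0702) and Prox1 from 5.99 to 8.37 down to at most 0.105 CPM (lost without Met3 replicate 1, 0.0531). Cdx2, the master factor of the intestine, was at 38.9 to 56.5 CPM in Met1 and 69.2 to 98.3 CPM in Met3, apart in level but not past the test (0.72, SE 0.25, adjusted p = 0.0518). Rises on this list numbered 3 without Met1 replicate 1 and 2 without Met1 replicate 3, and falls 8 without Met2 replicate 1. Of 19 Hox genes tested, 2 rose, 2 fell and 15 were not called, near the 11.6% and 11.8% of all genes. The hindgut gene Hoxb13 fell from 120, 86.6 and 93.0 to 10.8, 13.3 and 20.8 CPM (-2.73, SE 0.36, adjusted p = 0.00115). Hoxa10 fell from 95.3 to 115 down to 46.9 to 58.1 CPM (-1.01, SE 0.22, adjusted p = 0.00791). The anterior gene Hoxa2 rose from 1.55 to 1.75 up to 5.12 to 6.71 CPM (1.75, SE 0.36, adjusted p = 0.00605), as did Hoxa4. Of 13 T-box genes only 5 were tested, and 3 rose and 2 fell, beside 11.6% and 11.8% of all genes. Tbx18 and Tbx4, at or near 0 in Met1, passed the count filter only through groups where they were higher. The count of calls in this family is therefore no independent support. Tbx18 rose from at most 0.183 to between 8.95 and 20.6 CPM (6.99, SE 1.60, adjusted p = 0.00917), Tbx4 from 0 in every library to 1.15 to 3.87 CPM (at least 46.0-fold), and Tbx2 rose as well, whereas Tbx3 and Tbx1 fell. Pax9, a foregut factor, rose from 0.0501, 0.795 and 0.0915 to 16.1, 14.8 and 13.8 CPM (5.58, SE 0.79, adjusted p = 0.00158), and Pax8 fell from 2.10 to 4.35 down to at most 0.323 CPM.

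Several keratins rose and most junction genes were not called. Of 22 junction and epithelial identity genes, 3 rose and 0 fell, with the rises near the 11.6% of all genes, and 5 rose without Met2 replicate 1 or with only the 6 libraries in the fit. Epcam and Cdh1, which encodes E-cadherin, were at 745 to 856 against 894 to 970 CPM and 391 to 512 against 324 to 395 CPM, neither past the test. Rab25, an epithelial trafficking GTPase, rose from 195 to 273 up to 489 to 588 CPM (log2 1.24, SE 0.26, adjusted p = 0.00567). Of 30 tested keratins, 8 rose and 3 fell, beside 11.6% and 11.8% of all genes, so the falls were near the share of all genes. Krt79, a keratin of hair follicle and sebaceous duct cells, went from 2.50, 8.80 and 3.29 CPM to 467, 411 and 540 CPM (6.61, SE 0.92, adjusted p = 0.00139), and Krt80 from 29.1 to 56.4 up to 125 to 154 CPM (1.86, SE 0.43, adjusted p = 0.0092). In the primary-derived libraries Krt79 stood at 26.1 to 44.9 CPM. The simple keratins Krt8, Krt18 and Krt19 were not called. The count of keratin rises was 5 without Met3 replicates 1 or 3. That of falls was 0 without Met3 replicate 1 and 1 without Met1 replicate 3 or Met3 replicate 2. It was also 1 under limma-voom or with only the 6 libraries in the fit. Of 14 tested squamous genes, 2 rose and 3 fell, beside 11.6% and 11.8% of all genes, with a median of 0.009. The surface protein Lypd3 rose from 0.640 to 5.86 up to 57.9 to 69.9 CPM (4.62, SE 0.92, adjusted p = 0.00484). Dsg3 fell from 15.1 to 65.0 down to 10.3 to 12.6 CPM (-2.06, SE 0.61, adjusted p = 0.0299). Krt17 fell from 0.601 to 4.02 down to at most 0.115 CPM (adjusted p = 0.0234). Neither fall held under limma-voom, and the list had 0 falls there or without Met3 replicates 1 or 3. Of 9 tested genes of mesenchymal transition, 2 rose and 3 fell, beside 11.6% and 11.8% of all genes. Snai1, a repressor of E-cadherin, rose from 0.106 to 0.274 up to 0.577 to 1.67 CPM (2.64, SE 0.68, adjusted p = 0.0157, lost without Met1 replicates 1 or 2 or Met3 replicate 1, up to 0.066). S100a4, a calcium-binding protein, rose from 6.36 to 11.6 up to 23.5 to 66.2 CPM (2.34, SE 0.64, adjusted p = 0.0216, lost under limma-voom or without Met1 replicates 2 or 3 or Met3 replicate 2, up to 0.0818). Cald1 and Foxc2 fell, and Fn1, which encodes fibronectin, fell from 29.1, 176 and 94.8 to 1.46, 7.56 and 5.40 CPM (-4.38, SE 1.02, adjusted p = 0.01). The rises on this list numbered 0 without Met1 replicate 2 and 1 without Met1 replicates 1 or 3 or Met3 replicates 1 or 2, and the falls 1 without Met1 replicate 3 or Met3 replicates 2 or 3 and 5 without Met2 replicate 1. Cdh2, which encodes N-cadherin, was at 0.501 to 4.02 against 0.0524 to 0.0577 CPM and was not called (adjusted p = 0.101).

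Several genes of attachment to the matrix fell, and urokinase and its receptor rose. Of 20 laminin and integrin genes, 6 were lower and 1 higher, beside 11.8% and 11.6% of all genes. The higher gene was Itgb5, whose call was lost without Met1 replicate 1 or Met3 replicate 3. Itgb6, the epithelial subunit of integrin alpha-v beta-6, went from 23.7, 33.0 and 34.9 CPM to 9.16, 9.46 and 6.66 CPM (log2 -1.86, SE 0.22, adjusted p = 0.000674), and its partner Itgav from 70.2, 119 and 102 to 32.4, 48.0 and 30.4 CPM (-1.39, SE 0.30, adjusted p = 0.0066). Lamc1, a laminin chain, went from 77.6 to 101 down to 31.6 to 46.5 CPM (-1.19, SE 0.18, adjusted p = 0.00215). These 3 held under every alternative, and the count of falls was 3 without Met1 replicate 2 or Met3 replicates 1 or 3. The list of plasminogen activators, metalloproteinases and their inhibitors split. Of 16 tested, 3 rose and 4 fell, beside 11.6% and 11.8% of all genes, with a median of -0.18. Its falls included Mmp7, given above, and Adamts1 (4.67 to 13.8 down to 0.105 to 0.462 CPM). Plau, urokinase, went from 47.1, 18.4 and 39.6 to 114, 227 and 87.0 CPM (2.02, SE 0.47, adjusted p = 0.00977), and its receptor Plaur from 72.0, 99.0 and 80.8 to 157, 216 and 138 CPM (1.02, SE 0.20, adjusted p = 0.00443). Serpinb2, an inhibitor of urokinase, rose (adjusted p = 0.0139, lost under limma-voom or without Met1 replicate 2, up to 0.0786). Timp3, an inhibitor of metalloproteinases, fell from 4.71, 16.3 and 107 to 0, 0.346 and 0.157 CPM (adjusted p = 0.00234, lost under limma-voom at 0.129).

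Metabolic genes that were called in the lists of glycolysis, cholesterol and fatty acid oxidation were all lower. In the glycolysis and hypoxia list 6 of 29 fell and 0 rose, beside 11.8% and 11.6% of all genes. Its best known hypoxia marker, Car9, went from 86.4, 245 and 102 CPM to 9, 1.39 and 0.262 CPM (log2 -5.34, SE 0.90, adjusted p = 0.00284). The primary-derived libraries held Car9 at 0.430 to 0.964 CPM, below every Met1 library. Hexokinase Hk2 went from 141, 297 and 193 to 90.8, 111 and 71.8 CPM (-1.21, SE 0.25, adjusted p = 0.00632), and the lactate exporter Slc16a3 from 423 to 520 down to 61.8 to 127 CPM (-2.33, SE 0.39, adjusted p = 0.00268). Gapdh, Ldha, Pkm and the glucose importer Slc2a1 were not called, with differences of -0.08, -0.05, 0.03 and -0.07. The count was 3 without Met1 replicates 2 or 3 or Met3 replicates 2 or 3, and 12 with only the 6 libraries in the fit. Cholesterol synthesis had 8 of 24 lower and 0 higher, beside the same shares of all genes. Its regulator Srebf2 went from 343, 433 and 333 to 214, 218 and 202 CPM (-0.81, SE 0.18, adjusted p = 0.0078), and the enzyme Tm7sf2 from 42.2 to 46.0 down to 18.1 to 28.2 CPM (-1.01, SE 0.19, adjusted p = 0.00371). That count ran from 6 to 9 when 1 library was left out. Plin2, the coat protein of lipid droplets, fell from 110 to 131 down to 22.5 to 34.1 CPM (-2.16, SE 0.32, adjusted p = 0.00186), and the desaturase Scd2 from at most 1584 CPM in Met1 to between 642 and 844 CPM (-0.94, SE 0.21, adjusted p = 0.0083).

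Of 204 solute carriers tested, 38 were lower and 9 higher, beside 11.8% and 11.6% of all genes. The glutamine transporter Slc38a1 went from 80.8, 157 and 101 CPM to 0.754, 0.981 and 1.21 CPM (log2 -6.84, SE 0.94, adjusted p = 0.00131), and the cystine importer Slc7a11 from 125, 290 and 191 to 41.1, 64.2 and 62.3 CPM (-1.85, SE 0.33, adjusted p = 0.00313). The falls numbered 16 without Met1 replicate 2, 21 without Met3 replicate 1, 22 without Met3 replicate 3, 24 without Met3 replicate 2 and 25 without Met1 replicate 3, and the rises 21 without Met2 replicate 1. Glutathione S-transferases split by gene, with 6 of 19 lower and 3 higher, beside 11.8% and 11.6% of all genes. There was 1 higher without Met1 replicate 1, and 11 were lower without Met2 replicate 1. Gstt2 went from 13.4, 37.1 and 10.6 to 0.808, 0.462 and 0.786 CPM (-4.88, SE 0.61, adjusted p = 0.000849), and Gsta1 from 1.55, 2.38 and 1.55 up to 65.6, 51.5 and 26.6 CPM (4.71, SE 0.90, adjusted p = 0.00403). The malic enzyme Me1, a source of NADPH, fell from 175, 320 and 304 to 54.8, 86.2 and 80.1 CPM (-1.85, SE 0.28, adjusted p = 0.00205). Aldh1l1, an enzyme of folate metabolism, fell from 34.7, 41.2 and 19.4 to 0.808, 0.981 and 0.367 CPM (-5.46, SE 0.74, adjusted p = 0.00126).

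Some chemoattractants of neutrophils rose, and most antigen presentation genes were not called. Of 21 cytokine and chemokine genes, 5 rose and 0 fell, beside 11.6% and 11.8% of all genes. The summed level of the list overlapped, at 896 to 1042 CPM in Met1 and 638 to 1111 CPM in Met3. Cxcl1 went from 4.66, 1.85 and 5.03 CPM to 46.4, 51.5 and 12.4 CPM (log2 3.25, SE 0.52, adjusted p = 0.00247), and Ppbp, also a ligand of the receptor CXCR2, from 0.601, 1.80 and 2.70 to 8.73, 16.2 and 15.3 CPM (2.97, SE 0.59, adjusted p = 0.00485). These 2 calls held under every alternative; the count was 2 without Met3 replicate 1 and 3 without any other 1 of the 6 libraries except Met3 replicate 3. In class I antigen presentation the immunoproteasome subunit Psmb8 rose from 0.751, 0.159 and 0.640 to 7.11, 5.31 and 6.55 CPM (3.59, SE 0.77, adjusted p = 0.00716), and the peptide transporter Tap2 from 1.74 to 5.91 up to 12.9 to 14.5 CPM (adjusted p = 0.0182, lost without Met1 replicates 2 or 3, up to 0.0748). The other 17 of 19 tested did not pass, so the rises of this list were near the 11.6% of all genes. Without Met2 replicate 1, 5 rose. Of 26 interferon-stimulated genes, 0 rose and 1 fell, Mx1, whose call was lost without any 1 of the 6 libraries (adjusted p up to 0.189). Neuronal and axon guidance genes changed in both directions, with 5 higher and 4 lower of 21, beside 11.6% and 11.8% of all genes, and a median of -0.45. The guidance receptor Dcc rose from 0.251, 0.053 and 0.137 to 12.5, 3.81 and 3.67 CPM (5.43, SE 0.97, adjusted p = 0.00323) and Robo2 from at most 0.150 to 2.78 to 7.39 CPM (5.91, SE 1.10, adjusted p = 0.00374). Plxna1, a semaphorin receptor, fell from 48.3 to 65.2 down to 27.7 to 32.9 CPM (-0.97, SE 0.16, adjusted p = 0.00284), and Bex1, given above, is the largest fall of the list. There were 8 lower without Met2 replicate 1 or under DESeq2 and 3 higher without Met1 replicate 2.

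Ribosomal protein genes rose almost as a block. Of 81 tested, 67 were higher and 1 lower, with a median log2 difference of 0.62, and their summed level went from 75980, 70520 and 83490 CPM in Met1 to 104300, 120800 and 114700 CPM in Met3. Rpl13 went from 1337, 1196 and 1442 to 2091, 2366 and 2216 CPM (0.75, SE 0.10, adjusted p = 0.00126), and Rpl23a from 1423 to 1712 up to 2305 to 3098 CPM (0.77, SE 0.14, adjusted p = 0.00307). Ribosomal protein genes have many near-identical pseudogenes, so how reads were divided among copies is uncertain. The exception, Rpsa, fell from 2192 to 2613 down to 1305 to 1617 CPM (-0.72, SE 0.21, adjusted p = 0.029, lost without any 1 of Met1 replicates 1 and 3 or the 3 Met3 libraries, up to 0.104). The count of rises was 49 to 69 when 1 library was left out. Their sum was 105800 to 108500 CPM in Met2 and 79810 to 105400 CPM in the primary-derived libraries. Nuclear genes of oxidative phosphorylation, also short transcripts, had 8 of 20 higher and 1 lower, Uqcrc1, beside 11.6% and 11.8% of all genes. Cox5b rose from 140 to 179 up to 232 to 287 CPM (0.75, SE 0.14, adjusted p = 0.00378). That count was 4 without Met1 replicates 1 or 2 or Met3 replicates 1 or 2.

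Transcript length moved with the difference in the whole data set. In the shortest quintile of protein-coding genes by exonic length (204 to 2385 bases) 24.1% were higher and 7.41% lower in Met3, and in the longest (7523 to 123179 bases) 4.03% were higher and 20.6% lower. Spearman's rho between log2 difference and length was -0.22 over 12676 protein-coding genes, which are not independent replicates. The shortest quintile took 24.1% to 24.9% of protein-coding counts in Met1 and 28.4% to 29.2% in Met3, and 25.3% to 29.0% in the other 9 libraries. Of the 65 ribosomal protein genes between 865 and 3526 bases, their 10th to 90th percentile of length, 80% were higher. Among the 4503 other protein-coding genes of those lengths 16.4% were, and among the 109 of them at a similarly high level 19.3%. Histone mRNAs and small nuclear and nucleolar RNAs mostly carry no poly(A) tail, and those that were called were all higher. Of 60 histone genes, 29 rose and 0 fell, beside 11.6% and 11.8% of all genes, with a summed level of 418 to 545 CPM in Met1 and 650 to 777 CPM in Met3, and 15 and 9 rose without Met1 replicates 1 and 2 and 11 and 14 without Met3 replicates 1 and 2. Of 47 small nucleolar RNAs, 16 rose and 0 fell, and of 24 small nuclear RNAs, 8 and 0. The part of RNA quality or library preparation in these rises was not tested.

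**Figure D5:**
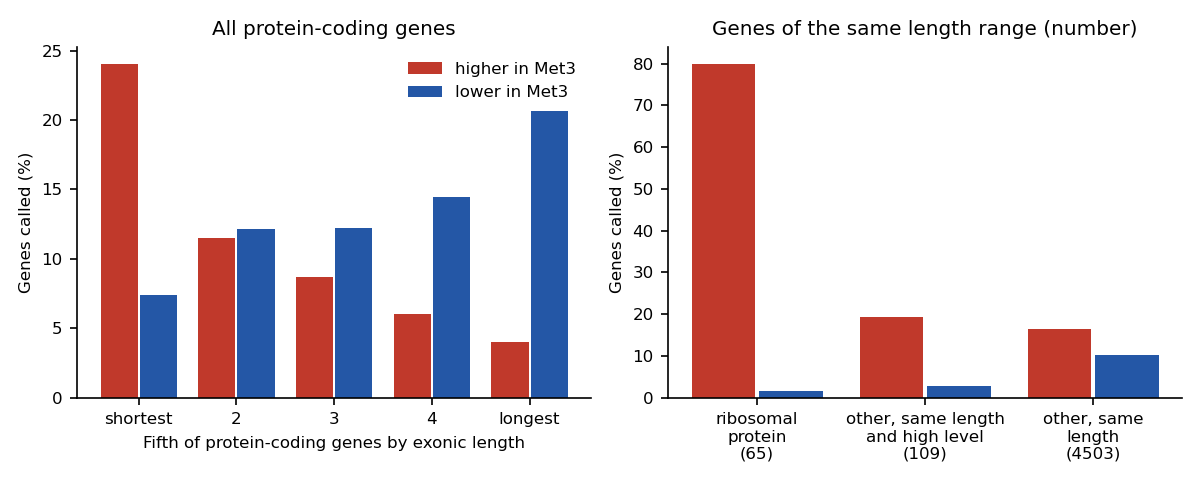
Percent of genes called higher (red) or lower (blue) in Met3 by quintile of exonic length over 12676 protein-coding genes (left), and for 65 ribosomal protein genes beside other genes of the same length range (right; number of genes in brackets). Calls for higher levels fall from 24.1% in the shortest quintile to 4.03% in the longest, and ribosomal protein genes stand at 80% against 19.3% of other short genes at a high level.

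Many genes of 1 chromosome segment fell. On distal chromosome 9 (GRCm38 chr9:102584588-124476898, chosen after seeing the values as the run with most genes among windows of 50 genes whose median log2 difference lay beyond 0.5), 106 of 235 tested genes were lower and 6 higher, 45.1% and 2.55%. The median difference of these genes from their Met1 mean was -0.66, -0.65 and -0.69 in the 3 Met3 libraries. It was -0.09, -0.27 and 0.07 in Met2, and between -0.24 and -0.19 in the 6 primary-derived libraries, and no other library came near the Met3 values. Rpsa, Tgfbr2, Rbms3, Uqcrc1, Lamb2, Plxnb1 and Pfkfb4, named above or members of the lists, lie in this segment. Uqcrc1, a subunit of respiratory complex III, went from 164, 182 and 213 to 114, 104 and 118 CPM (log2 -0.73, SE 0.17, adjusted p = 0.00966). Whether DNA copies of the segment differ was not tested. Over whole autosomes the share of genes called lower was highest on chromosome 9 (22.04%), then 10 (17.1%) and 6 (16.5%), and lowest on chromosome 5 (3.88%), where 15.3% were higher and the median was 0.25.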

How the data were processed

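RNA-seq libraries of AKP colon cancer organoids were used as 1 table of estimated counts per gene, made with Salmon 1.3.0 on mm10 and deposited by the authors, per the submitters' processing notes. Summing, rounding, annotation release, filters and strand setting were not given in the sources used here. All values were whole numbers. Gene names and positions came from GENCODE M21 (54166 of 54418 identifiers matched); promoters came from RefSeq. Series totals ran from 14122203 to 21306543 counts; 3 counts equal 0.142 to 0.165 CPM in Met1. Intervals and floors cover counting error only.

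Genes were kept by edgeR's filterByExpr (14925, with 99.9% of counts), scaled by TMM, and tested with edgeR 4.0.16 (R 4.3.3) by the quasi-likelihood F test in 1 fit of all 15 libraries by group, with 10 residual degrees of freedom and Benjamini-Hochberg adjustment over all genes. SE is the absolute log2 difference over the square root of F. Ratios of genes with 1 to 3 counts carry an exact counting interval. Simulated data held 50 changed genes per fold among 14925, far fewer than the 3499 called here. There the test recovered 6% of 1.5-fold, 26% of 2-fold, 66% of 4-fold and 78% of 8-fold changes, with 2 false calls. These rates need not hold for the real data.

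Named genes were the GATA pair, Apc and Trp53, the 12 largest rises and 12 largest falls (called, average log2 CPM of at least 1, no overlap, leaving aside 284 predicted or unnamed genes that met these terms), the 10 largest differences of mean CPM each way, and up to 4 members of each list with the smallest p. Some genes that this rule names are not reported here. Other named genes, such as members that did not pass, were picked with their values in view. The comparison and the gene lists were chosen with earlier results of these data known. The 2-cell families, the chromosome segment and the promoter classes were grouped after their values were seen. Alternatives were RLE scaling, no filter, a CPM filter, DESeq2 1.42.0, limma-voom (limma 3.58.1), the 6 libraries alone, a replicate block, ribosomal RNA share as covariate, and leaving out libraries.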

Additional observations from a re-analysis of the deposited data

How the results depend on the processing

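Leaving out 1 library gave 937 to 2184 genes higher and 1017 to 2265 lower, 613 to 1146 at least 2-fold higher and 647 to 1266 at least 2-fold lower. The lowest counts came without Met1 replicate 2 (937 higher, 613 at least 2-fold higher) or Met3 replicate 1 (1017 lower), and the highest without Met2 replicate 1. The cause was not tested. DESeq2 called 2144 and 2244, limma-voom 1709 and 1731, RLE scaling 1744 and 1750, no filter 1423 and 1621, and the 6 libraries alone 1559 and 1592. Of 4152 values of named genes under alternatives, 3728 kept direction and call, 341 lost the call, 83 gained it and 0 reversed. Equally numbered Met1 and Met3 libraries had correlations of -0.006, 0.107 and 0.051 in their deviations from the group means. Unequally numbered ones ran from -0.110 to 0.059. The labels give no pairing, and values this close cannot decide whether libraries are paired. A fit with the replicate block called 1645 higher and 1680 lower. Depth limits genes near the floor of 3 counts, and arms of 3 libraries limit small changes.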
